A study of Mus musculus with 8 samples.

Results

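The genes described here are the 4 MiT/TFE transcription factors (Tfeb, Tfe3, Mitf and Tfec), the folliculin gene Flcn with its partners Fnip1 and Fnip2, and the Rag GTPase genes Rragc and Rragd. They were chosen by gene symbol, 9 of the 24421 symbols counted, and all 9 had enough reads to be tested. The cells were mouse bone marrow-derived macrophages (BMDM), grown in culture from bone marrow, and all of them received IL-4, the cytokine of alternative activation, for 24 h. All 8 libraries came from mice with floxed Opa1 alleles (OPA1f/f), Opa1 encoding a GTPase of inner mitochondrial membrane fusion. The 4 FLOX libraries (replicates 3, 4, 6 and 7) carry the floxed alleles alone, whereas the 4 CKO libraries (replicates 2, 6, 7 and 8) came from OPA1f/f; Lyz2-Cre mice. Lyz2-Cre drives Cre recombinase from the lysozyme 2 locus of myeloid cells, so how far Opa1 is lost depends on Cre activity in each culture. No group carries Lyz2-Cre without floxed Opa1, so effects of the driver and of Opa1 loss cannot be told apart. The labels give neither age nor sex, nor whether the libraries of a group came from separate mice. The p-values thus measure the spread between these libraries, which may be technical, and without an unstimulated group every value describes genotype under IL-4.

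MiT/TFE proteins are basic helix-loop-helix leucine zipper factors that bind DNA as dimers at E-boxes and turn on genes of lysosomes and autophagy. When amino acids are plentiful, Rag GTPases on the lysosome bring mTORC1 and its substrates TFEB and TFE3 together, and the phosphorylated factors stay in the cytosol. Folliculin with FNIP1 or FNIP2 activates RagC and RagD by promoting GTP hydrolysis on them, and loss of folliculin lets TFEB and TFE3 enter the nucleus. The genes of folliculin, its partners and RagD are themselves described as MiT/TFE targets, which makes the circuit a feedback loop. The factors are regulated largely through phosphorylation and location, which RNA counts do not measure.

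Every one of the 9 genes was lower in CKO than in FLOX. All 9 were called lower at a 0.05 threshold on the Benjamini-Hochberg adjusted p of an edgeR quasi-likelihood test, as were 21.6% of the 11519 genes tested (45.4% were called in either direction). For all 9 the CKO and FLOX ranges of CPM (counts scaled by TMM library sizes) did not overlap. Ranges that do not overlap were met in 42.7% of all tested genes, and for 2304 of these 4918 genes CKO was the lower group, as for the 9. The median log2 fold change of the 9 was -0.53, beside -0.02 over all tested genes, and single values ran from -1.14 (Rragd) to -0.30 (Tfec). These 9 genes share a pathway and were chosen with earlier results of these data known, so their count is a description. In cultures a smaller number of cells that express a gene and less RNA per cell cannot be told apart.

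**Figure D1:**
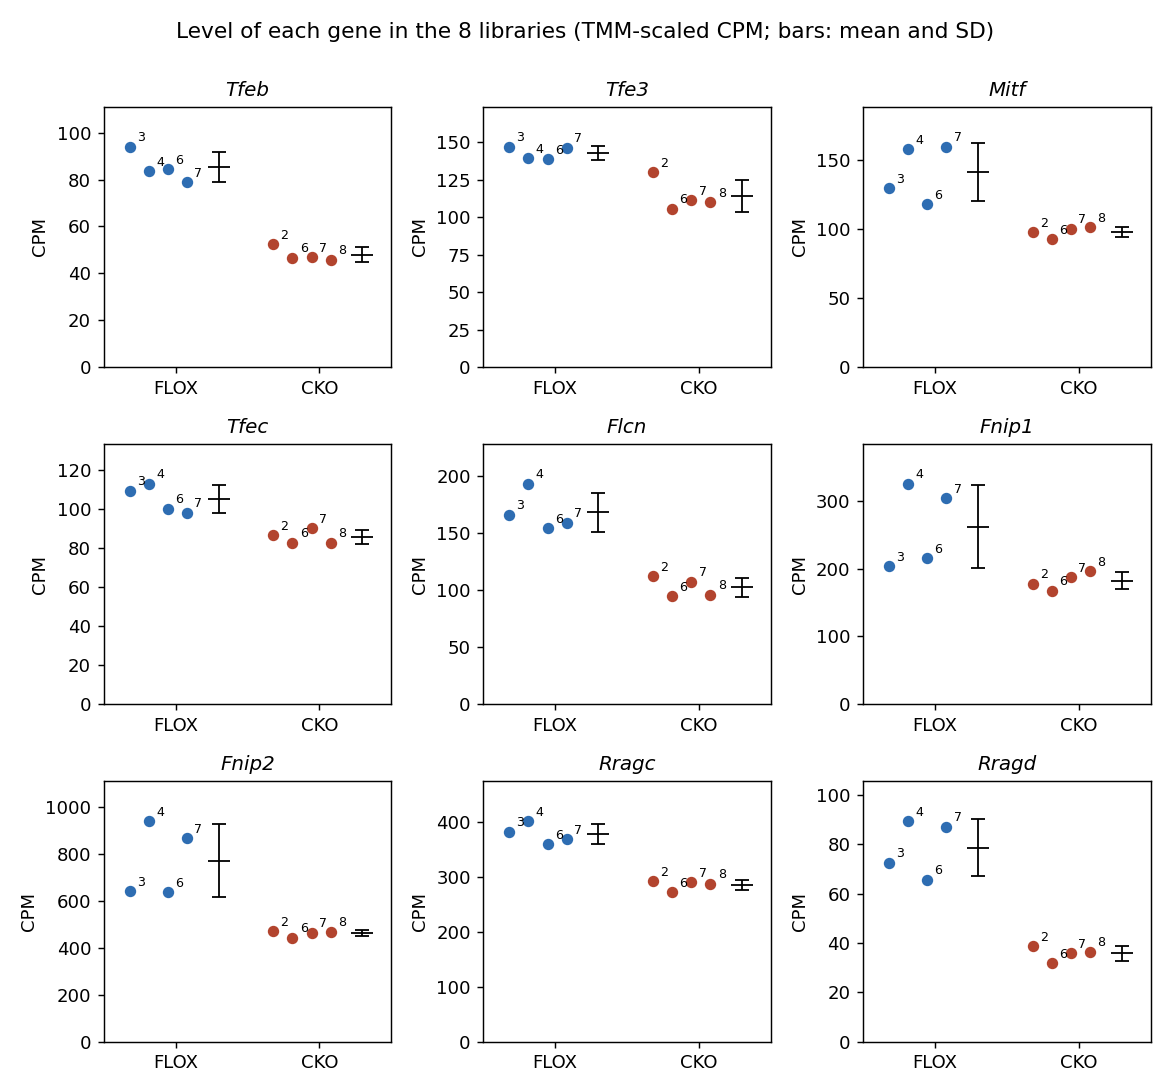
CPM of each of the 9 genes (y axis, from 0) in the 4 FLOX (blue) and 4 CKO (red) libraries, with the replicate number beside each point and the mean and SD at its side. In every panel the 4 CKO points lie below the 4 FLOX points, with the narrowest gap for Fnip1 (196 against 203 CPM).

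The libraries held 11764855 to 18939948 read pairs assigned to a gene. Lyz2, the locus of the driver, ranged from 1809 to 2387 CPM in the CKO and from 6906 to 8294 CPM in the FLOX libraries, and the groups did not overlap. Opa1 itself ranged from 94.6 to 105 CPM in the CKO and from 104 to 130.4 CPM in the FLOX libraries (-0.19 on the log2 scale with an SE of 0.07, adjusted p = 0.0544 by edgeR). Gene totals do not resolve the exons between loxP sites, so Opa1 counts cannot check the deletion. Opa1 was called in 4 of 19 alternatives, among them the fits without FLOX replicate 3 (adjusted p = 0.0182) and without FLOX replicate 6 (adjusted p = 0.0496), over a range of 0.00139 to 0.258, and its log2 fold change ran from -0.29 with FLOX replicates 3 and 6 left out to -0.08 with FLOX replicates 4 and 7 left out. FLOX replicates 3 and 6 stood apart from FLOX replicates 4 and 7 on the second principal component, and CKO replicate 2 lay nearest to FLOX among the CKO libraries on the first. Of the 8 macrophage markers none was at 0, and 3 were called lower and 1 higher in CKO. Their sum was 6899.7 to 7434 CPM in CKO and 7649 to 8065 CPM in FLOX. One text of the labels speaks of islets, yet 7 of 8 islet markers (Ins1, Ins2, Gcg, Sst, Iapp, Pdx1 and Nkx6-1) were at 0 counts in all libraries.

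Tfeb, the factor best known as a driver of lysosome genes, fell most among the 4 transcription factors. Its locus is on chromosome 17 (47737030 to 47792419, mm10, plus strand, ENSMUSG00000023990). Tfeb was at 52.6, 46.7, 46.8 and 45.8 CPM in CKO replicates 2, 6, 7 and 8 and at 94.1, 83.7, 84.5 and 78.9 CPM in FLOX replicates 3, 4, 6 and 7. The CKO library nearest to FLOX was replicate 2, and every FLOX library was far above it. CKO stood at 56.2% of FLOX (95% interval 49.8% to 63.4%, -0.83 on the log2 scale with an SE of 0.07, adjusted p = 2.36e-06 by edgeR). On the ranking of all tested genes by log2 fold change Tfeb stood at percentile 2.08 from the lowest.

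Tfe3, the closest functional relative of Tfeb, changed much less. The gene sits on the X chromosome (7762560 to 7775202, plus strand, ENSMUSG00000000134). Its CKO values were 129.8, 106, 111 and 110.1 CPM, and its FLOX values 147, 139, 139 and 146 CPM, in the order of replicates used for Tfeb. FLOX libraries were tightly grouped, with a coefficient of variation of 3.20%, whereas CKO replicate 2 stood above the other CKO libraries. The lowest FLOX library was only 1.07 times CKO replicate 2. CKO was at 79.9% of FLOX (95% interval 71.1% to 89.8%, -0.32 on the log2 scale with an SE of 0.07, adjusted p = 0.00219 by edgeR), a fall whose interval does not reach that of Tfeb.

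Mitf, which gives the family its name and acts in pigment cells, mast cells and osteoclasts, fell by an amount between the other 2. It is on chromosome 6 (97807052 to 98021349, plus strand, ENSMUSG00000035158) and has several alternative promoters, which gene totals do not separate. Mitf was at 97.4, 92.5, 100.05 and 101 CPM in CKO and at 129, 157, 118 and 159 CPM in FLOX. The CKO libraries lay close together, while FLOX replicates 4 and 7 were above FLOX replicates 3 and 6. CKO was at 69.4% of FLOX (95% interval 59.3% to 81.1%, -0.53 on the log2 scale with an SE of 0.09, adjusted p = 0.00054 by edgeR). This interval overlapped both that of Tfeb and that of Tfe3, so the middle place of Mitf is not settled. The fold change was -0.34 with FLOX replicates 4 and 7 left out (adjusted p = 0.000453 by edgeR). It was -0.70 with FLOX replicates 3 and 6 left out (adjusted p = 6.28e-08). Over all 19 alternatives the adjusted p ran from 6.28e-08 to 0.00503. These FLOX pairs were set after seeing the data, and the libraries of a pair lie close together. The adjusted p of such a fit thus leaves out the spread between the pairs.

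Tfec, the member whose expression is centred on myeloid cells and which IL-4 induces in macrophages, fell least. Its locus, like that of Mitf, is on chromosome 6 (16833373 to 16898441, minus strand, ENSMUSG00000029553). Its CKO values were 86.6, 82.9, 90.4 and 83.0 CPM, and its FLOX values 109, 113, 100.3 and 98.2 CPM. The lowest FLOX library was only 1.09 times the highest CKO library. CKO was at 81.5% of FLOX (95% interval 73.1% to 90.8%, -0.30 on the log2 scale with an SE of 0.06, adjusted p = 0.00242 by edgeR), and the interval of Tfec overlapped those of Tfe3 and Mitf.

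The make-up of the factor group differed in part between the genotypes. Summed per kb of merged exons, the 4 factors came to 51.9 ± 2.16 CPM per kb in CKO and 72.1 ± 3.67 CPM per kb in FLOX (SD, n = 4 each). Of that sum Tfeb gave 15.7% to 17.0% in the CKO libraries and 19.1% to 22.8% in the FLOX libraries. Tfec gave 28.4% to 30.7% in CKO and 24.0% to 26.8% in FLOX, so its share was higher in every CKO library although its level was lower. The same held for Tfe3, which gave 22.8% to 25.7% in CKO and 19.9% to 22.4% in FLOX. Mitf shares overlapped between the groups (28.8% to 31.9% and 28.5% to 35.2%). These shares depend on the length assigned to each gene and were not tested.

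**Figure D2:**
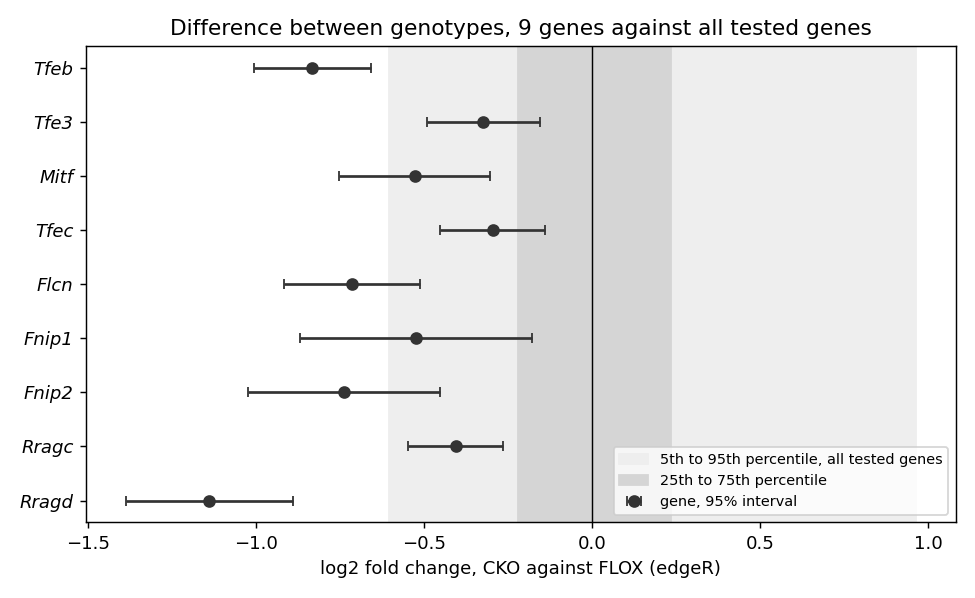
Log2 fold change of CKO against FLOX (x axis, edgeR) for the 9 genes, with 95% intervals, over bands that hold the central part of all 11519 tested genes. Tfeb, Flcn, Fnip2 and Rragd lie below the 5th percentile of all genes (-0.60), and the interval of each of the 9 lies below 0.

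Flcn encodes folliculin, the catalytic part of the complex that acts on RagC and RagD. The gene is on chromosome 11 (59791408 to 59810016, minus strand, ENSMUSG00000032633). Flcn was at 112, 94.5, 107 and 96.0 CPM in CKO and at 166, 193, 154 and 159 CPM in FLOX. Replicate 4 was the highest FLOX library, and the lowest FLOX library was 1.38 times the highest CKO library. CKO was at 61.0% of FLOX (95% interval 53.0% to 70.1%, -0.71 on the log2 scale with an SE of 0.08, adjusted p = 2.25e-05 by edgeR).

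Fnip2, the more abundant of the folliculin partner genes, fell by a similar amount. Chromosome 3 carries the gene (79455974 to 79567796, minus strand, ENSMUSG00000061175). Fnip2 was at 472, 444, 466 and 469 CPM in CKO, a coefficient of variation of 2.78%, and at 641, 942, 638 and 868 CPM in FLOX, one of 20.2%. All FLOX libraries were above all CKO libraries, but FLOX replicates 4 and 7 far more so than replicates 3 and 6. CKO was at 59.9% of FLOX (95% interval 49.2% to 73.0%, -0.74 on the log2 scale with an SE of 0.12, adjusted p = 0.000278 by edgeR). With FLOX replicates 4 and 7 left out the fold change was -0.47 (adjusted p = 1.12e-05 by edgeR), and with 3 and 6 left out -0.97 (adjusted p = 2.79e-09). Over the alternatives the adjusted p ran from 2.79e-09 to 0.00277. As for Mitf, the adjusted p with a FLOX pair left out does not hold the spread between the pairs.

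Fnip1, which encodes the other partner, a substrate of the energy sensor AMPK, had the widest range of fold changes over the alternatives among the 9. Like Flcn it lies on chromosome 11 (54438199 to 54518235, plus strand, ENSMUSG00000035992). Fnip1 was at 178, 167, 187 and 196 CPM in CKO and at 203, 325, 215 and 304 CPM in FLOX. FLOX replicates 3 and 6 were just above the highest CKO library, and the lowest FLOX value was 1.04 times the highest CKO value. CKO was at 69.6% of FLOX (95% interval 54.8% to 88.4%, -0.52 on the log2 scale with an SE of 0.14, adjusted p = 0.0111 by edgeR). Against FLOX replicates 3 and 6 alone the fold change was -0.20 (adjusted p = 0.0188 by edgeR), and against FLOX replicates 4 and 7 alone -0.79 (adjusted p = 7.04e-08). Here too the adjusted p leaves out the spread between the FLOX pairs. Without CKO replicate 6 the call ended (-0.47, adjusted p = 0.0514), the highest of the alternatives, which began at 7.04e-08.

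Rragd, whose product RagD is one of the forms that present TFEB to mTORC1, fell most of the 9. Its locus is on chromosome 4 (32983037 to 33022180, plus strand, ENSMUSG00000028278). Rragd was at 38.8, 31.8, 35.9 and 36.5 CPM in CKO and at 72.6, 89.5, 65.7 and 87.2 CPM in FLOX. The groups were wide apart, the lowest FLOX library being 1.69 times the highest CKO library. CKO was at 45.4% of FLOX (95% interval 38.2% to 54.0%, -1.14 on the log2 scale with an SE of 0.10, adjusted p = 3.33e-06 by edgeR). This interval overlapped that of Tfeb. Rragd stood at percentile 0.747 of all tested genes, counted from the lowest log2 fold change.

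Rragc, the abundant paralog of Rragd, fell by a smaller amount and with little spread. Chromosome 4 carries this gene as well (123917446 to 123936997, plus strand, ENSMUSG00000028646). Its CKO values were 291, 271, 290.0 and 287 CPM and its FLOX values 381, 401, 359 and 367 CPM. No library came near the other group, the lowest FLOX value being 1.23 times the highest CKO value. CKO was at 75.5% of FLOX (95% interval 68.5% to 83.3%, -0.41 on the log2 scale with an SE of 0.06, adjusted p = 0.000113 by edgeR), an interval above that of Rragd. Per kb of merged exons Rragd made up 7.05% to 7.92% of the Rragc and Rragd sum in CKO and 10.6% to 13.3% in FLOX. GENCODE places 4930535I16Rik on the opposite strand across part of the Rragc exons. That symbol is not among those counted. Without a stated strand setting it is not known whether reads from its strand were counted for Rragc. No other member has an exon that overlaps an exon of another gene in that annotation.

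The 250 bases before the RefSeq transcription starts of the 9 genes (14 starts, GRCm38.p6, the assembly of mm10) were searched for the E-box CACGTG on both strands, since MiT/TFE proteins bind this motif. It occurred before the starts of Fnip1 and Rragc, 2 of the 9 genes, once each. Of all 32851 such windows known to RefSeq, 6.02% held it, or 6.86% of 27025 genes. The longer TCACGTG, which contains the E-box, was met in the same 2 windows and in 3.13% of all windows, and CATGTG was met in 0 of the 14 and in 12.3% of all. The windows of Fnip1 (chr11:54437929-54438178, plus strand) and Rragc (chr4:123917183-123917432, plus strand) are shown with the E-box in capitals, beside that of Rragd (chr4:32982748-32982997, plus strand), the gene that fell most, which has none here. Each runs 5′ to 3′ and ends at the base before the start.
Fnip1: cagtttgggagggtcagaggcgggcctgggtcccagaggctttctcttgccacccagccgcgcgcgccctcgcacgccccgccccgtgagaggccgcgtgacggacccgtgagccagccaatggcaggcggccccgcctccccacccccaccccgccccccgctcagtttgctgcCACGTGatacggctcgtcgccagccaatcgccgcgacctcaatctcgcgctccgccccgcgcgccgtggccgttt
Rragc: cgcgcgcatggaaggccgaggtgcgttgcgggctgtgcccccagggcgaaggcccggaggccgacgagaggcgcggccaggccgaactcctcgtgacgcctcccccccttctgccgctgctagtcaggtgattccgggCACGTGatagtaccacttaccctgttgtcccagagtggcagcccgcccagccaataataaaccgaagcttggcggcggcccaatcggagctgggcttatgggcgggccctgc
Rragd: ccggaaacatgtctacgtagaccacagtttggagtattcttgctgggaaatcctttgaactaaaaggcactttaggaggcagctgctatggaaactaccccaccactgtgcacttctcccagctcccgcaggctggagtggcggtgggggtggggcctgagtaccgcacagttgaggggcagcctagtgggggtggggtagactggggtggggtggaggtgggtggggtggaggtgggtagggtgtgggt
The E-box began 75 bases before the start of Fnip1 and 112 bases before that of Rragc. The log2 fold changes of Fnip1 (-0.52) and Rragc (-0.41) lay within those of the 7 genes with no match in these letters, which ran from -1.14 (Rragd) to -0.30 (Tfec). A match is a string of letters and says nothing of binding in these cells.

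The 9 genes did not vary in the same way within the groups. Fnip1, Fnip2, Mitf and Rragd, 4 of the 9, were lower in both FLOX replicates 3 and 6 than in both FLOX replicates 4 and 7, as were 29.2% of all tested genes. Tfeb, Tfe3, Tfec, Flcn and Rragc were not, and Tfeb was highest in FLOX replicate 3. Among the CKO libraries replicate 6 was lowest for 8 of the 9 genes (all but Tfeb) and replicate 2 highest for 6 of them. The coefficient of variation was larger in FLOX than in CKO for 8 of the 9, Tfe3 being the exception. Shares over all tested genes were not computed for the CKO order and the coefficient of variation. On the first principal component of all tested genes CKO replicate 2 was at -16.2, CKO replicate 6 at -26.2 and FLOX at 16.6 to 26.7. The chi-square over its degrees of freedom reached 9.63 for pairs of CKO libraries and 27.9 for pairs of FLOX libraries. The library differences that these patterns follow carry no label, so their part in the results was not tested.

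**Figure D3:**
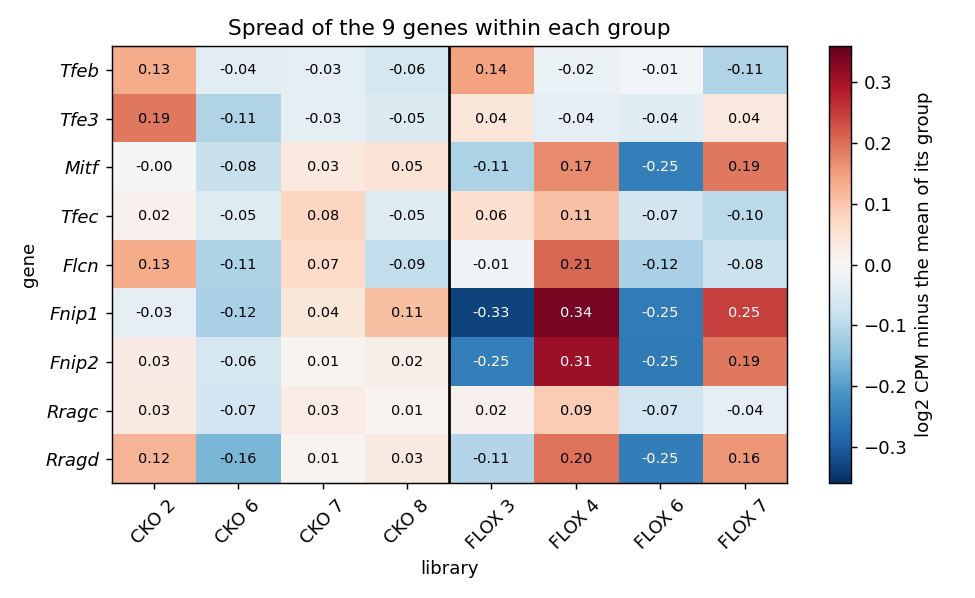
Log2 CPM of each of the 9 genes (rows) in each library (columns) minus the mean of its own group, so that 0 is the group mean. Fnip1 ranges from -0.33 in FLOX replicate 3 to 0.34 in FLOX replicate 4, whereas Rragc runs from -0.07 to 0.09 over the FLOX libraries.

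Levels of different genes were compared per kb of merged exons. In FLOX, Rragc was highest at 113 ± 5.52 CPM per kb, followed by Fnip2 (92.3 ± 18.7), Flcn (38.9 ± 4.01), Fnip1 (36.8 ± 8.63), Mitf (22.8 ± 3.34), Tfec (18.8 ± 1.28), Tfe3 (15.4 ± 0.494), Rragd (15.2 ± 2.22) and Tfeb (15.0 ± 1.12; SD, n = 4 each). The FLOX ranges overlapped between neighbours for Rragc and Fnip2, Flcn and Fnip1, Mitf and Tfec, Tfe3 and Rragd, and Rragd and Tfeb, so these pairs have no clear order. In CKO, Rragc (85.3 ± 2.78) was clear of Fnip2 (55.3 ± 1.54), and Rragd came last at 6.91 ± 0.560 CPM per kb, below every library of Tfeb (8.46 ± 0.544). The upper places did not depend on the length used, but lower places, held by the 4 factors and Rragd, did. Per kb of the longest transcript Tfeb moved from rank 9 to rank 5 in FLOX and from rank 8 to rank 6 in CKO. Rragd moved from rank 8 to rank 9 in FLOX, where Tfec kept rank 6. The order among the factors is thus not settled by gene totals.

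**Figure D4:**
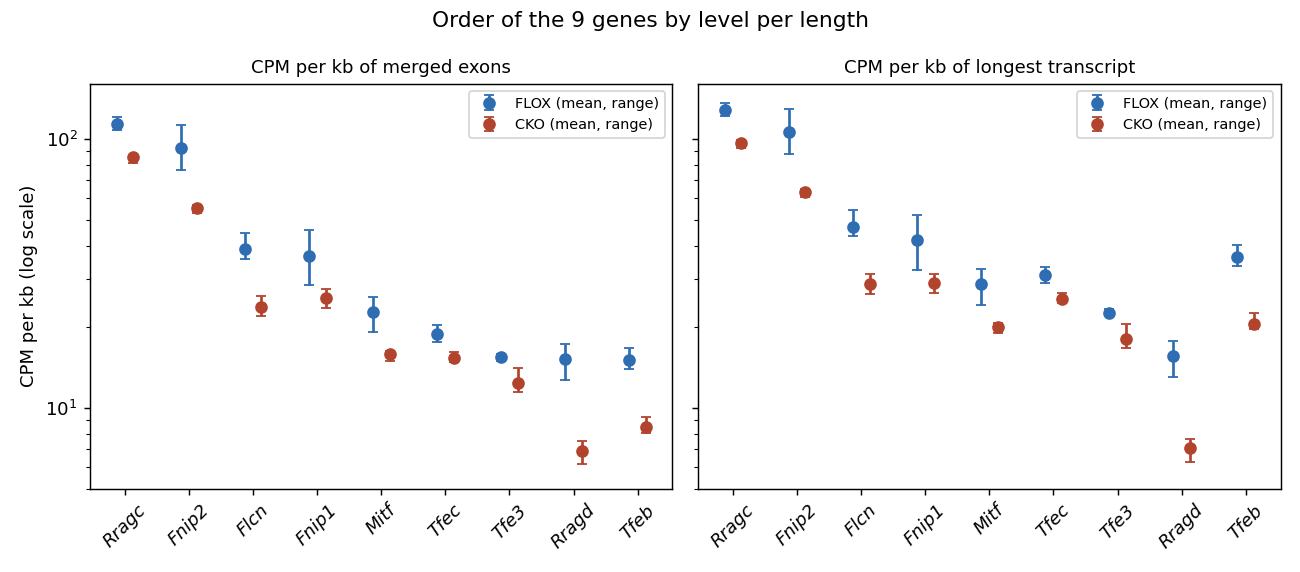
Level per kb (y axis, log scale) of the 9 genes in FLOX (blue) and CKO (red), with means and ranges over 4 libraries, per kb of merged exons (left) and of the longest transcript (right). Rragc and Fnip2 lead on both scales, and Tfeb is the gene that moves most between them.

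For each of the 9, the genes of most similar profile were found by the root mean square (RMS) difference of centred log2 CPM over the 8 libraries, among 8995 other genes. Nearest to Tfeb were 1810058I24Rik (RMS 0.0181) and Cd63 (0.0389), a tetraspanin of late endosomes. Scamp2 and Tmem214 were nearest to Tfe3, Nt5dc3 and Gna13 to Mitf, and Arfgap3 and Rnf19b to Tfec, with RMS values of 0.0330 to 0.0421. Il6ra (0.0313) and Bach1 (0.0556) were nearest to Fnip1, and Mbtd1 (0.0424) and Crebrf (0.0540) to Fnip2. Hbp1 and Fam20c (0.0562 and 0.0565) were nearest to Flcn, and Smap2 (0.0299) and Emb (0.0335) to Rragc. Rragd had the least close neighbours, Ddhd1 (0.0748) and Lpin1 (0.0761). The measure includes the genotype difference, so it finds genes of similar fold change and spread.

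The other genes of the pathway went both ways. Of 36 genes of lysosomal nutrient sensing and mTORC1, 7 were lower and 5 higher in CKO (19.4% and 13.9%, beside 21.6% and 23.8% of all tested genes), with a median log2 fold change of -0.09. Rraga, which pairs with Rragc and Rragd products, averaged 62.8 ± 3.85 CPM over the CKO libraries and 63.3 ± 2.14 CPM over the FLOX libraries (SD, n = 4 per group), named here after its value was seen. Its paralog Rragb rose by 0.54 on the log2 scale (edgeR adjusted p = 0.0139) at a level of 2.27 to 4.18 CPM, and with FLOX replicates 3 and 6 left out the call ended (0.40, adjusted p = 0.106, beside 0.0054 to 0.106 over all alternatives). Leaving out FLOX replicates 3 and 6, or 4 and 7, gave 11 or 12 lower genes in the list and 5 higher ones. Over all genes these fits called 3017 or 2837 lower, in place of 2492.

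Of the sestrin genes on this list, Sesn2 rose, Sesn1 fell and Sesn3 was not called (0.09 on the log2 scale, adjusted p = 0.755 by edgeR, named after its value was seen). Sesn2, also described as an ATF4 target, was at 35.7, 35.4, 35.6 and 32.8 CPM in CKO and at 18.2, 16.2, 20.8 and 19.9 CPM in FLOX (0.89 on the log2 scale with an SE of 0.08, adjusted p = 4.67e-06 by edgeR). Sesn1 was at 106, 91.4, 84.0 and 88.5 CPM in CKO and at 155, 145, 148 and 154 CPM in FLOX (-0.71 on the log2 scale with an SE of 0.07, adjusted p = 8.68e-06 by edgeR). Neither Sesn1 nor Sesn2 had overlapping groups. Rheb, the GTPase that switches on mTORC1, rose by 0.34 and the scaffold subunit Rptor by 0.25 (0.18 and not called, adjusted p = 0.0567, with FLOX replicates 3 and 6 left out, within 0.00202 to 0.189 over all alternatives), while the mTOR inhibitor Deptor fell by 0.72 and the Ragulator subunit Lamtor3 by 0.37 on the log2 scale. With FLOX replicates 4 and 7 left out Deptor fell by 0.41, and with 3 and 6 left out by 0.98. Rnf152, a ubiquitin ligase for RagA, had a log2 fold change of 0.91 (edgeR adjusted p = 0.0438) at 0.303 to 1.28 CPM, with overlapping groups. That call ended without CKO replicate 2 (adjusted p = 0.0528), 6 (0.112) or 8 (0.112), without FLOX replicate 3 (0.103), 4 (0.104) or 6 (0.0567), without CKO replicate 2 and FLOX replicate 6 together (0.0702) and with FLOX replicates 3 and 6 left out (0.146), beside 0.0823 with DESeq2 and a range of 0.014 to 0.498 over all alternatives.

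Of 31 tested genes that modify, hold or export MiT/TFE proteins, 7 rose and 4 fell (22.6% and 12.9%, beside 23.8% and 21.6% of all tested genes), with a median of 0.05. Xpo1, the exportin that carries TFEB out of the nucleus, averaged 269 ± 25.8 CPM in the CKO and 145 ± 14.5 CPM in the FLOX libraries (SD over 4 libraries, 0.89 on the log2 scale with an SE of 0.09, adjusted p = 5.9e-06 by edgeR). Ppp3cc, a catalytic subunit gene of the phosphatase calcineurin that acts on TFEB, rose by 0.78 at 2.34 to 5.08 CPM. The 4 that fell were the kinase genes Prkcd (-0.50), Akt2 (-0.32) and Akt1 (-0.20) and the lysosomal calcium channel gene Mcoln1 (-0.36), itself described as a TFEB target and counted among the CLEAR genes too. Akt1 was not called without CKO replicate 6 (adjusted p = 0.0716), 7 (0.0718) or 8 (0.0668), within 0.00411 to 0.0773 over all alternatives. With FLOX replicates 3 and 6 left out 10 genes of this list rose and 8 fell. Over all genes 3073 were then called higher and 3017 lower, in place of 2739 and 2492.

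Lysosome and autophagy genes of the CLEAR network, described as TFEB and TFE3 targets, were mostly lower. Of 51 tested, 41 fell and 1 rose (80.4% and 1.96%, beside 21.6% and 23.8% of all tested genes), with a median of -0.34. The list was chosen with lower lysosome genes in these data already known, so its direction is no independent evidence. Atp6v0d2, a proton pump subunit, fell from 906 ± 93.7 to 394 ± 37.5 CPM (SD, n = 4 each) and Gabarapl1, an ATG8 protein of autophagosomes, from 188 ± 14.8 to 103 ± 10.6 CPM. Cd63 fell by 0.81, the lysosomal cystine exporter Ctns by 0.62 and the pump subunit Atp6v1d by 0.54 on the log2 scale. Atg16l1, part of the machinery that attaches lipid to ATG8 proteins, rose by 0.31 (edgeR adjusted p = 0.00144). A second gene rose without CKO replicate 2, without FLOX replicate 6, and with FLOX replicates 3 and 6 left out, giving 2 in each.

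Genes described as MITF, TFE3 or TFEC targets in other settings went both ways. Of 12 tested, 7 fell and 4 rose (58.3% and 33.3%, beside 21.6% and 23.8% of all tested genes, median -0.34, Clcn7 and Atp6v0d2 being on the CLEAR list too), and 8 others, among them the pigment genes Tyr, Tyrp1, Dct, Mlana and Pmel, had too few reads to test. Csf3r, the G-CSF receptor gene described as a TFEC target in IL-4 treated macrophages, was at 140, 114, 138 and 124 CPM in CKO and at 265, 312, 215 and 279.7 CPM in FLOX (-1.05 on the log2 scale with an SE of 0.10, adjusted p = 6.76e-06 by edgeR). Ctsk, the collagen-degrading cathepsin of osteoclasts, fell by 1.30 and the glycoprotein gene Gpnmb by 0.71 on the log2 scale. The 4 that rose were Bcl2 (1.91), an inhibitor of apoptosis, Met (1.81), the receptor of hepatocyte growth factor, Cdk2 (0.50), a cell cycle kinase, and Hif1a (0.29), the hypoxia factor. Hif1a was at 0.16 with FLOX replicates 3 and 6 left out and at 0.43 with FLOX replicates 4 and 7 left out.

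**Figure D5:**
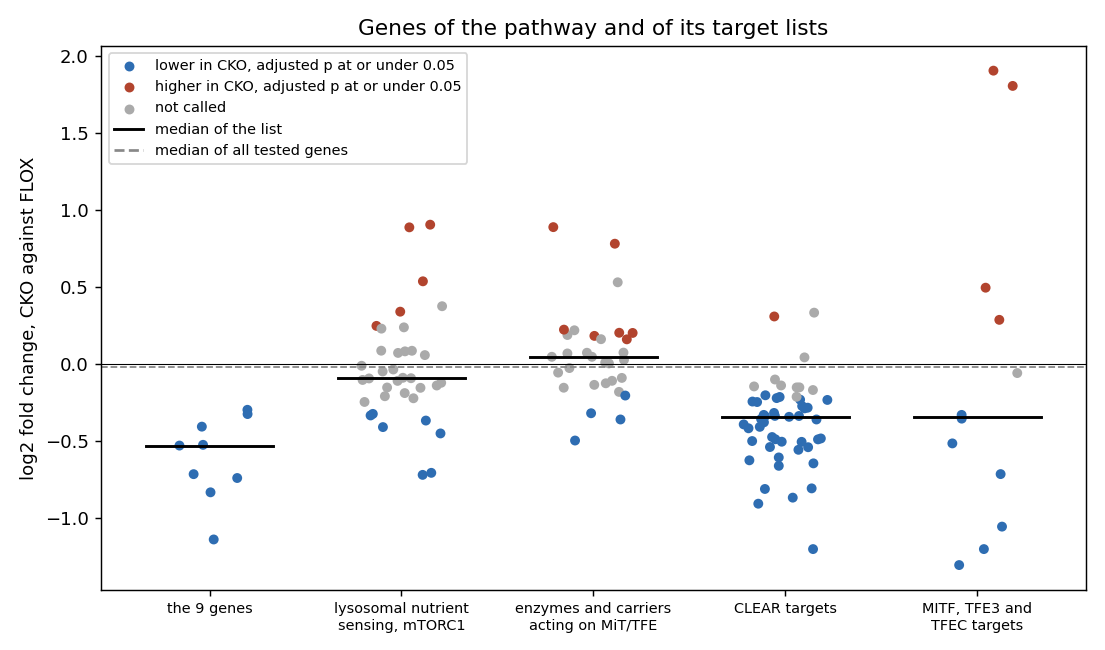
Log2 fold change of CKO against FLOX for the 9 genes and for the tested genes of 4 lists, 1 point per gene, coloured by the edgeR call, with the list median as a bar and the median of all tested genes as a dashed line. The 9 genes and most CLEAR targets lie below 0, while the nutrient sensing genes and the enzymes acting on MiT/TFE scatter around it.

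Markers of other cell types moved with the groups as well. Beside the calls given here, 21.6% of all tested genes were lower and 23.8% higher in CKO. S100a4 was the most abundant of the 9 monocyte markers. Their sum was 1058 to 1203 CPM in CKO and 1449 to 1826 CPM in FLOX, with 3 of 7 tested lower and 4 higher. That of 7 osteoclast markers was 89.7 to 104 CPM against 114 to 133 CPM (3 of 5 tested lower, Calcr at 0 counts), and that of 6 mast cell and basophil markers 4.81 to 5.47 CPM against 7.29 to 9.44 CPM, mostly Kit, with Mcpt4, Tpsb2, Mcpt8 and Fcer1a at 0. In the other direction went 9 markers of neutrophils and their precursors (4.68 to 10.5 CPM in CKO, 1.99 to 3.44 CPM in FLOX, 3 of 4 tested higher, Elane at 0) and 9 stromal and endothelial markers (31.9 to 34.6 CPM against 19.1 to 24.3 CPM, both tested ones higher, Lum at 0). Dendritic cell markers summed to 2.60 to 3.39 CPM in CKO and 2.34 to 2.55 CPM in FLOX, and lymphocyte markers to at most 0.395 CPM. The part of these differences in the results on the 9 genes was not tested.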

How the data were processed

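The 8 libraries were made from total RNA and sequenced as paired ends. The deposited values are raw counts per gene symbol, 1 file per library, which the authors made with HISAT2 2.0.5 on mm10 and HTSeq, per the submitters' processing notes. Which annotation and strand option the counting used is not given in the sources used here. HTSeq's 5 classes of unassigned pairs, which hold 28.3% to 33.7% of all pairs, were left out of library sizes and tests.

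The deposited counts went into edgeR 4.0.16 (R 4.3.3), where filterByExpr (minimum count 10, minimum total 15) kept 11519 of 24421 genes, libraries were scaled by TMM, and the genotypes were compared by the robust quasi-likelihood F test, with Benjamini-Hochberg adjustment over all tested genes at 0.05. Dividing a log2 fold change by the square root of its F gave the SE, and 95% intervals were taken at 6 degrees of freedom. The test was checked on simulated counts. It called with the right sign 7 of 49 genes changed 1.2-fold and 41 of 48 changed 1.5-fold. At 2-fold it called 45 of 49 and at 4-fold 50 of 50, with 12 of 11245 unchanged genes called. Few genes were changed in the simulation, beside 11245 unchanged ones, whereas 45.4% of the tested genes were called in the data. The adjustment was thus stricter in the simulation, which also lacked library differences such as those between the FLOX pairs. Small changes may be missed in the data, at a rate that these counts do not give. Positions, exon lengths and overlaps came from GENCODE M21 (GRCm38, the assembly of mm10) and promoters from RefSeq's table on GRCm38.p6, all 9 symbols matching both.

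Library pairs of a group differed by more than counting noise (chi-square over its degrees of freedom 2.45 or more), so none was taken for a library deposited more than once. The 9 genes, the 4 pathway lists (nutrient sensing, enzymes acting on MiT/TFE, CLEAR targets, MITF targets) and the marker lists were chosen with earlier results of these data known. Named beyond the 9 are Opa1, Lyz2, the 5 called genes of smallest p in each pathway list, called genes that went against most of their list, and the 2 genes nearest to each of the 9 in profile. The osteoclast markers Acp5, Ctsk and Dcstamp are also on the MITF list. Alternatives were RLE and upper-quartile factors, other filters, DESeq2 1.42.0, voom of limma 3.58.1, the 20 most abundant genes removed, the replicate number as a block and libraries left out. Leaving out FLOX replicates 3 and 6, or 4 and 7, was added after seeing the data. Those fits keep FLOX libraries that lie close together. Their adjusted p-values and counts of called genes thus leave out the spread between the FLOX pairs.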

Additional observations from a re-analysis of the deposited data

Results flagged for a closer look

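Among 76 sets of 4 libraries examined (each of the 9 genes, Opa1, Lyz2 and the genes named by rule from the pathway lists, in each group), 8 had a library that stood apart by Dixon's criterion, which chance gives in about 5% of sets. In 5 of the 8 the library was CKO replicate 2. Of the 9 genes only Tfeb was among them, at 52.6 CPM in CKO replicate 2 against 45.8 to 46.8 CPM in the other CKO libraries, a value nearer to FLOX. CKO replicate 2 also stood apart for Cd63 (755 CPM, the next library at 637), Gpnmb (5037 CPM, the next at 4227), Akt1 (316 CPM, the next at 280.3) and, in the low direction, Ppp3cc (4.44 CPM, the next at 4.99). Ctsk was low in CKO replicate 6 (8.77 CPM, the next at 10.8), Sesn2 low in CKO replicate 8 (32.8 CPM, the next at 35.4) and Rragb high in FLOX replicate 4 (3.18 CPM, the next at 2.34). Without CKO replicate 2 the log2 fold change of Tfeb was -0.85.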

How the results depend on the processing

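Each of the 9 genes was lower in CKO under all 19 alternatives, and all 9 were called in 17 of them and 8 in the other 2. Those were the fit without CKO replicate 6, where Fnip1 had an adjusted p of 0.0514, and the replicate block, where Tfec had a log2 fold change of -0.20 (adjusted p = 0.212, the highest of its range, which began at 0.000172). Replicate numbers 6 and 7 are the only ones in both groups and their libraries share only a number (correlation of deviations from the group means 0.139 and -0.07). With the replicate block 1518 genes were called lower in place of 2492, and 1985 higher in place of 2739. In the lists the block gave 2 higher genes of nutrient sensing, 2 higher genes among the enzymes acting on MiT/TFE and 0 higher CLEAR targets, in place of 5, 7 and 1. Atg16l1 (adjusted p = 0.0575) and Hif1a (0.0788) were among the genes not called with the block. Higher CLEAR targets were 1 to 2 with 1 library left out, and 2 without CKO replicate 2 and FLOX replicate 6 together and with FLOX replicates 3 and 6 left out. FLOX replicates 3 and 6 left out gave 11 lower nutrient sensing genes and 8 lower genes acting on MiT/TFE, and FLOX replicates 4 and 7 left out 12 lower nutrient sensing genes. Over all genes those 2 fits called 3017 and 2837 lower, in place of 2492. The causes were not tested. For Opa1, Lyz2 and the genes named by rule from the pathway lists, 29 in all, 524 of 548 values kept their direction and call, 20 lost the call, 4 gained it and 0 reversed. Depth was 11764855 to 18939948 pairs, and low genes such as Rnf152 rest on few counts.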
